A study of Mus musculus with 22 samples.

Results

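The genes described here encode parts of the axoneme, the microtubule core of cilia and of the sperm tail, and of the sheaths and fibres that surround it in sperm. They are the protein-coding genes on chromosomes 1 to 19 whose symbols begin with Dnah, Dnai, Dnali, Cfap, Tekt, Rsph, Spag or Odf, together with Smcp, Akap3 and Ropn1. By this rule 86 of 20665 such genes were chosen by name. No measured value enters the rule, but the members were chosen with earlier results of these data known. Of these, 73 had an accessible site (a peak) within 1000 bp of an annotated gene end, as did 14994 of the 20665. Where a gene had several such peaks, the one with the highest mean count was taken. The 13 members without such a peak are Cfap126, Cfap54, Cfap73, Cfap74, Cfap97, Cfap97d1, Dnah1, Dnah2, Dnah12, Dnaic2, Spag1, Spag11b and Tekt4.

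Accessibility was measured by ATAC-seq, in which Tn5 transposase cuts open chromatin, in 22 libraries of germ cells sorted from the testes of C57BL/6 mice aged 8 to 12 weeks. The 17 libraries of spermatogonia, the dividing cells that feed spermatogenesis, were taken 7 days after tamoxifen; their genotype entry reads TertCreER/+:Rosalsl-Tdtomato/+ for TERT-deleted and TERT-hetero mice alike, so both carry the CreER allele and the reporter, and only the titles separate deleted from control libraries (TERT-deleted and TERT-hetero). By their names, CreER in the spermatogonia and Tdtomato in the later germ cells are alleles of Tert. The design text gives the deletion as a Cre and LoxP one, and the genotype entry names no LoxP-flanked Tert allele. The spermatogonial libraries comprise deleted and control MCAM-high KIT-negative cells (3 and 3 libraries), deleted and control MCAM-medium KIT-negative cells (3 and 2) and deleted and control MCAM-medium KIT+ cells (3 and 3), where KIT is the receptor that marks differentiating spermatogonia. The 5 libraries of later germ cells, spermatocytes or round spermatids, carry the genotype TertTdtomato/+ and no time point. For 4 of these 5 the title and the library name give different cell types, so they were kept as 1 group. All 5 names share the tag Het1. The spermatogonial column names carry several numbered tags per genotype, and each tag recurs across sorted populations. Nothing in the labels says what the tags stand for or that any replicates came from separate mice. The p-values therefore rest on a spread between libraries that may be technical.

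The libraries held 922085 to 3358377 counts in peaks. Coordinates are given as deposited; the submitters' processing notes name mm10, GRCm38 and hg19 without a role. Values are CPM, read counts scaled to library size by TMM, and levels of different genes are compared only per kb of peak. Differences are log2 fold changes with standard errors from edgeR's quasi-likelihood test, adjusted by the Benjamini-Hochberg method over all peaks, with a threshold of 0.05. The labelled cell types were checked on the gene-end peaks of marker genes. Summed over 9 spermatid markers with a peak (of 10), accessibility was 323.5 to 422.2 CPM in later germ cells and 38.5 to 74.2 CPM in control spermatogonia. Summed over 12 spermatogonial markers (of 12), it was 150 to 183.2 CPM in later germ cells and 342.8 to 597.2 CPM in control spermatogonia. Summed over 10 spermatocyte markers (of 10), it was 437.9 to 572.7 CPM in later germ cells and 248.9 to 413.3 CPM in control spermatogonia. Sertoli cell markers (8 of 10 with a peak) summed to 84.4 to 93.9 CPM in later germ cells and 162.5 to 183.6 CPM in control spermatogonia. Leydig cell markers (2 of 7) summed to 13.1 to 19.4 CPM in later germ cells and 32.1 to 67.5 CPM in control spermatogonia, immune cell markers (4 of 8) to 22.9 to 26.9 CPM in later germ cells and 42.8 to 59.9 CPM in control spermatogonia, and peritubular and endothelial markers (4 of 8) to 27.5 to 46.6 CPM in later germ cells and 36.4 to 82.7 CPM in control spermatogonia. No list was at 0 in any library, and the part of other cells in the results was not tested. In bulk samples, fewer cells with an open site and a less open site in each cell cannot be told apart. The 1 peak within the Tert gene had 5.62 to 10 CPM in later germ cells, 12.5 to 21.2 CPM in deleted spermatogonia and 13.9 to 29.8 CPM in control spermatogonia. The labels do not say whether it lies in the stretch removed by Cre, so it does not check the deletion.

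A motile axoneme has a ring of doublet microtubules around a central pair. Outer and inner dynein arms (heavy chains of the Dnah genes, intermediate and light chains of the Dnai and Dnali genes) slide the doublets, radial spokes (Rsph genes) pass signals from the central pair (Spag6, Spag16 and Spag17 among others) to the dyneins, and tektins and many Cfap proteins line the doublets. The sperm tail adds outer dense fibres (Odf genes), a mitochondrial sheath that contains Smcp, and a fibrous sheath whose scaffold Akap3 binds Ropn1. These genes are transcribed mostly during and after meiosis, while the tail is built in spermatids; many also serve motile cilia of the airway, and not every gene with a Spag symbol is a tail gene (Spag5 is a mitotic spindle protein and Spag9 a kinase scaffold).

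Most of these genes were more accessible in later germ cells than in spermatogonia. The later libraries also differ from the control spermatogonial ones in Tert allele and in having no time point after tamoxifen. These differences cannot be told apart from stage here. Of the 73 members, all of which passed the filter on low counts, 49 rose, 9 fell and 15 did not pass the test in later germ cells against the mean of the 3 control spermatogonial populations. The background of the same comparison over 14587 tested genes was 34.5% higher and 30.5% lower, against 67.1% and 12.3% of the members. The median log2 fold change was 0.79 over the members and 0.05 over the 14587 genes. DESeq2's size factors in place of TMM gave 52 members higher and 8 lower, and total counts without scaling gave 45 and 10; over the 14587 genes the shares higher and lower were 41.5% and 24.4% with the size factors and 29.7% and 36.1% with total counts. Of the 49, 7 (Cfap157, Dnah17, Dnah3, Odf1, Odf3, Odf4 and Smcp) were too low to be tested among the spermatogonial libraries alone and passed the filter through the later libraries, where they are high. Of the other 66 members 42 rose and 9 fell, with a background of 32.2% higher and 31.8% lower over the 14006 genes tested among spermatogonia too, and medians of 0.68 over these members and 0.00 over these genes. In 31 members all 5 later libraries lay above all 8 control spermatogonial libraries, and in 4 all lay below; the background was 16.6% of genes above and 14.6% below. Against all 17 spermatogonial libraries, deleted ones included, the counts were 25 members above (background 13.7%) and 3 below (background 11%). The 5 later libraries summed over the 73 peaks held 3066 to 3409 CPM, and the 8 control spermatogonial libraries held 1716 to 2498 CPM. With the later library whose title and name give the same cell type (round spermatid) as the only later library, 31 members were called higher (background 14.6% of 14689 genes in that fit) and 3 lower (background 12.5%).

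**Figure D1:**
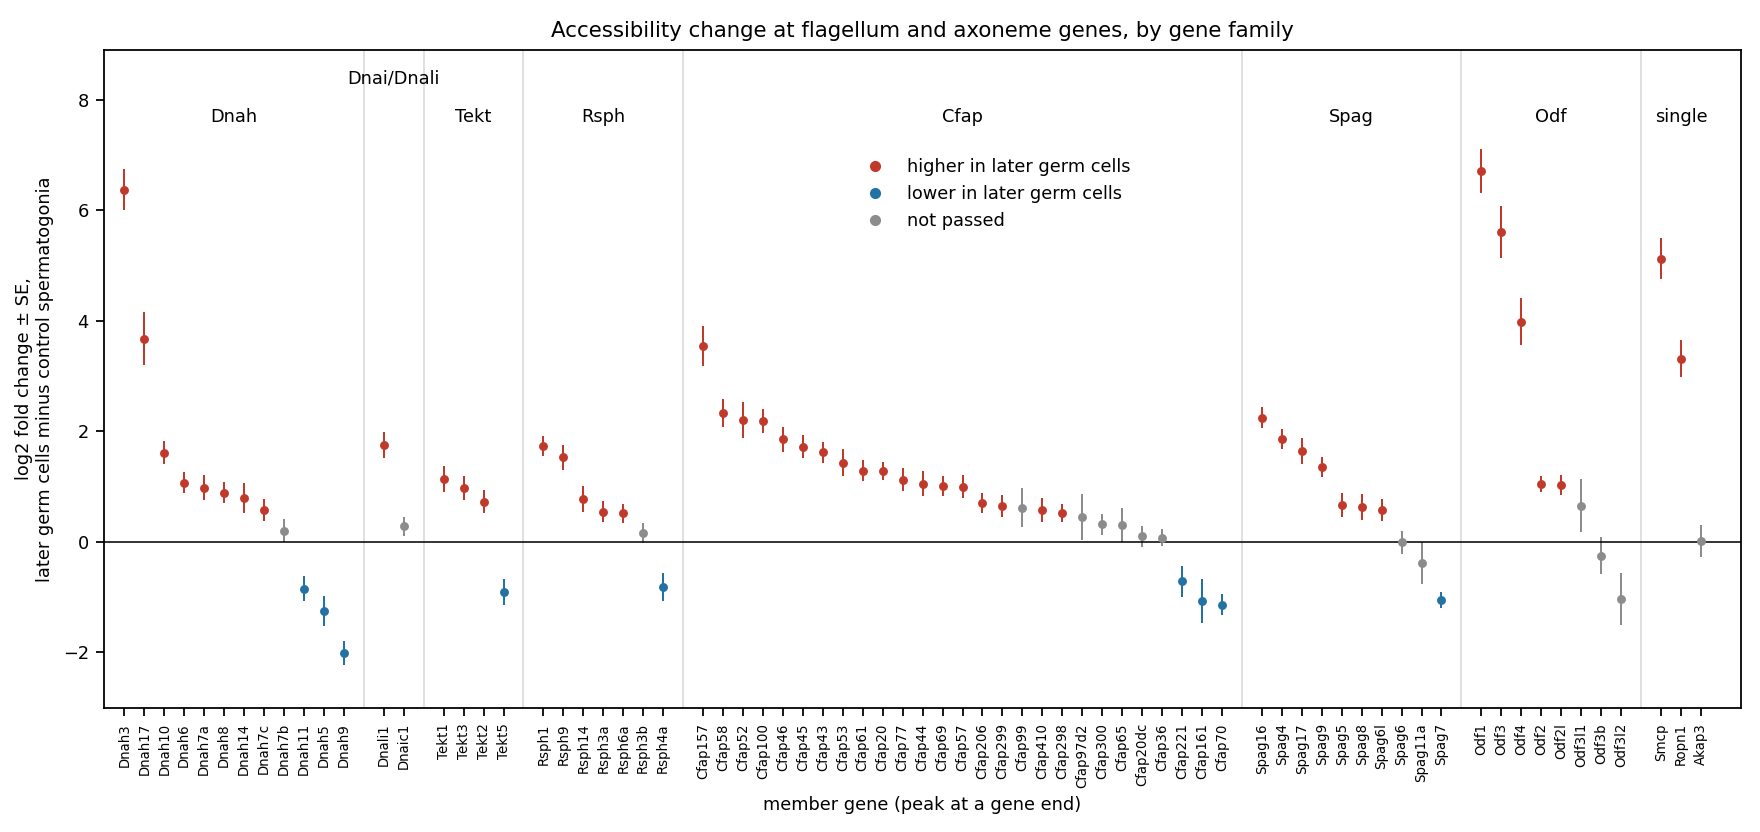
Log2 fold change with its standard error (vertical axis) of each of the 73 members with a gene-end peak (horizontal axis, grouped by gene family; "single" holds Smcp, Ropn1 and Akap3), later germ cells minus control spermatogonia. Red points passed upward (49 members), blue points downward (9) and grey points did not pass (15); Odf1, Dnah3, Odf3 and Smcp stand highest.

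Among the genes of the sheaths and fibres of the sperm tail, Odf1, Odf3, Smcp, Odf4 and Ropn1 were among the 10 largest rises. All but Ropn1 passed the filter on low counts through the later libraries, where they are high, so a rise was favoured in advance. Odf1, a main outer dense fibre protein, had 51.1, 50, 56.5, 66.9 and 57.2 CPM in the later libraries, against a lowest, median and highest value of 0, 0 and 6.42 CPM in control spermatogonia. Its site (chr15:38219100-38219780) had a log2 fold change of 6.71 ± 0.40 (SE, adjusted p = 9.49e-22 by edgeR), and the groups did not overlap. In control MCAM-high cells the site had 0 counts over 3 libraries. Against a floor of 3 counts over that group, later germ cells were at least 132.1-fold higher.

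Odf3, which lies along the tail and is also known as Shippo1, had 18.1, 23.8, 25.2, 17.1 and 26.1 CPM in later libraries and at most 1.17 CPM in control spermatogonia (log2 fold change 5.61 ± 0.47, adjusted p = 6.21e-16 by edgeR). Its peak also lies at an end of Scgb1c1. Odf4, a tail protein of spermatids, had 24.5, 19.4, 19.1, 11.2 and 25 CPM in later libraries and at most 4.28 CPM in control spermatogonia (3.99 ± 0.42). All later values of both genes exceeded all control values. Odf2, which is also a centriolar protein, and Odf2l had smaller changes (1.05 ± 0.15 and 1.03 ± 0.18). Odf3b, Odf3l1 and Odf3l2 did not pass, with later means of 8.39, 5.52 and 2.74 CPM and control spermatogonial means of 11.1, 4.56 and 5.75 CPM.

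Smcp, a cysteine-rich protein of the mitochondrial sheath, had 30.3, 36.2, 29.8, 42.6 and 41.7 CPM in later libraries, against 0 to 2.63 CPM in control spermatogonia (5.12 ± 0.37, adjusted p = 1.35e-18 by edgeR). Its site spans chr3:92587890-92588367, and a second peak of the gene changed alike (4.69 ± 0.40). That second peak averaged 1.02 CPM in control spermatogonia and also passed the filter on low counts through the later libraries. Ropn1, which binds the fibrous sheath scaffolds, had 23.5, 27.5, 32.8, 22.3 and 21.1 CPM in later libraries, against 0.893 to 7.48 CPM in control spermatogonia (3.31 ± 0.33). For both genes every later library was above every spermatogonial library of either genotype.

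Akap3, the scaffold itself, had 2 peaks with different changes. The peak chosen by count lies at the far end of the gene, also within 1000 bp of an end of Dyrk4, and had 12.7 ± 2.75 CPM in later germ cells and 12.2 ± 3.84 CPM in control spermatogonia (SD, n = 5 and 8; log2 fold change 0.02 ± 0.29, adjusted p = 0.964 by edgeR). The peak of lower mean count on the start side (chr6:126852973-126853279) averaged 19.1 ± 4.42 CPM in later germ cells and 0.594 ± 0.789 CPM in control spermatogonia, a log2 fold change of 4.95 ± 0.48 (adjusted p = 7.73e-14 by edgeR). That start-side peak passed the filter on low counts through the later libraries, where it is high, so a rise was favoured in advance.

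**Figure D2:**
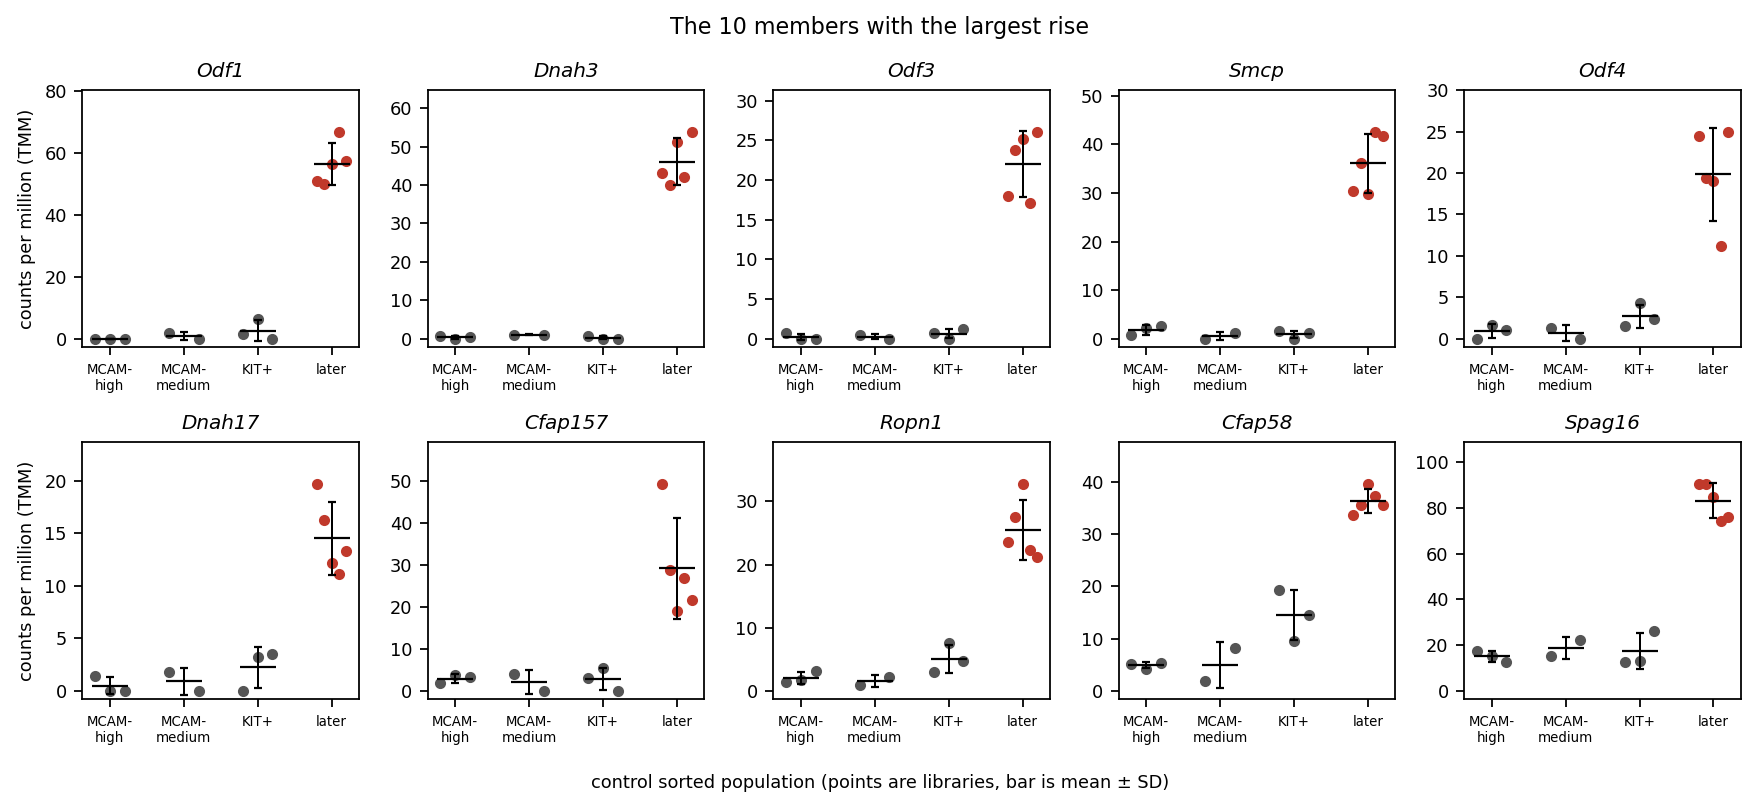
CPM (vertical axes, each with its own scale) of the 10 members with the largest rise in control MCAM-high, MCAM-medium and KIT+ spermatogonia and in later germ cells (horizontal axes); points are libraries, bars the mean ± SD. In all 10 the 5 later libraries lie above every spermatogonial library shown, and only Cfap58 has KIT+ libraries apart from the KIT-negative ones, at 9.62 to 19.4 CPM.

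Among the dynein heavy chains, the motors that bend the axoneme, 8 of 12 members with a peak rose and 3 fell. Dnah3, an inner-arm chain, had 43.2, 40, 51.2, 42.0 and 53.9 CPM in later libraries, against at most 1.08 CPM in control spermatogonia (chr7:120095067-120095787; 6.38 ± 0.37, adjusted p = 1.95e-22 by edgeR). Dnah17, an outer-arm chain of sperm, had 19.8, 16.2, 12.2, 11.2 and 13.3 CPM in later libraries, against at most 3.5 CPM in control spermatogonia (3.68 ± 0.48). Neither gene's later libraries overlapped the spermatogonial ones, and both genes passed the filter on low counts through the later libraries, where they are high. Dnah8, the other outer-arm chain known from sperm, rose by less (0.89 ± 0.19, at a peak on the far end of the gene), and the inner-arm chains Dnah10 (1.62 ± 0.21), Dnah6 (1.07 ± 0.19), Dnah7a and Dnah7c and the less studied Dnah14 made up the rest. Dnah7a, Dnah7b and Dnah7c are near-identical copies among which reads may be split, so their values are uncertain.

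The 3 heavy chains that fell, Dnah9, Dnah5 and Dnah11, are outer-arm chains known from airway cilia. Dnah9 had 16.3, 18.8, 5.34, 14.4 and 13.3 CPM in later libraries, against a lowest, median and highest value of 48.4, 54.6 and 64.8 CPM in control spermatogonia (chr11:66167733-66168752; -2.01 ± 0.22, adjusted p = 6.41e-12 by edgeR). Dnah5 had 6.25 to 11.4 CPM in later libraries and 16.3 to 28.6 CPM in control spermatogonia (-1.25 ± 0.28), again with no overlap. Dnah11 had 17.8 to 30.5 CPM in later libraries and 19.2 to 63.0 CPM in control spermatogonia (-0.85 ± 0.22), where the ranges did overlap. In control spermatogonia Dnah9 and Dnah11 stood at 54.1 and 55.0 CPM per kb of peak, at the 80.1 and 80.7 percentile of gene-end peaks, while Dnah3 stood at 0.683 CPM per kb. Of the intermediate and light chains, Dnali1 of the inner arm rose (1.76 ± 0.24) and Dnaic1 of the outer arm did not pass, with 82.4 ± 14.8 CPM in later germ cells and 67.4 ± 22.4 CPM in control spermatogonia (SD, n = 5 and 8).

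Of the radial spoke genes 5 of 7 rose and 1 fell. Rsph1 and Rsph9, proteins of the spoke head, rose most (1.73 ± 0.19 and 1.53 ± 0.22). The spoke head pair Rsph6a and Rsph4a, the first known from sperm and the second from motile cilia, changed in opposite directions against the mean of control spermatogonia. The Rsph6a peak also lies at an end of Sympk. Rsph6a had 65.8 ± 11.8 CPM in later germ cells and 46.1 ± 12.0 CPM in control spermatogonia (0.52 ± 0.17, adjusted p = 0.0073 by edgeR). Rsph4a had 16.6 ± 4.76 CPM in later germ cells and 30.8 ± 17.8 CPM in control spermatogonia (-0.82 ± 0.25, adjusted p = 0.00401 by edgeR), with overlapping libraries. Its values in control KIT+ cells were 13.4, 19.2 and 14.0 CPM, and against KIT+ cells 0 of the 7 Rsph members fell in later germ cells. Tektins, filaments inside the doublets, rose in 3 of 4 members (Tekt1, Tekt3 and Tekt2, log2 fold changes 0.73 to 1.14), and Tekt5 fell (-0.91 ± 0.24). Rsph3b, which shares its sequence closely with Rsph3a, did not pass (0.15).

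Of the 27 Cfap members with a peak, which include doublet lining proteins, tethers and central pair proteins, 18 rose and 3 fell. Cfap157, which mouse sperm need to build the axoneme, had 49.4, 28.7, 19.1, 26.9 and 21.7 CPM in later libraries, against 0 to 5.34 CPM in control spermatogonia (3.54 ± 0.37, adjusted p = 1.17e-12 by edgeR). It passed the filter on low counts through the later libraries, where it is high. Cfap58, a tail protein, had 33.7 to 39.7 CPM in later libraries and 1.79 to 19.4 CPM in control spermatogonia (2.33 ± 0.26). Further rises included the doublet lining genes Cfap52 (2.20 ± 0.33) and Cfap45 (1.72 ± 0.21), the central pair gene Cfap46 (1.85 ± 0.23), and the tether genes Cfap43 (1.62 ± 0.19) and Cfap44 (1.05 ± 0.23). The other Cfap rises were those of Cfap100 (2.19 ± 0.22), Cfap53, Cfap61, Cfap20, Cfap77, Cfap69, Cfap57, Cfap206, Cfap299, Cfap410 and Cfap298, whose log2 fold changes ran from 1.43 for Cfap53 to 0.52 for Cfap298. Cfap99 (0.62), Cfap97d2 (0.45), Cfap300 (0.32), Cfap65 (0.30), Cfap20dc (0.10) and Cfap36 (0.07) did not pass. Those that fell were Cfap70 (-1.14 ± 0.19), Cfap161 (-1.08 ± 0.40) and Cfap221, a central pair protein (-0.72 ± 0.28). The Cfap70 peak lies at the far end of the gene and also at an end of Mrps16. Without control KIT+ replicate 2 the value of Cfap161 was -0.43 (adjusted p = 0.48 by edgeR), and without later replicate 1 its adjusted p was 0.0539. The call of Cfap221 was lost without control MCAM-medium replicate 1 (adjusted p = 0.062) or later replicate 3 (adjusted p = 0.0512).

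The 10 Spag members with a peak held 7 that rose and 1 that fell. The central apparatus gene Spag16 had 90.2, 90.6, 84.8, 74.1 and 76.1 CPM in later libraries, against a lowest, median and highest value of 12.7, 15.2 and 26.3 CPM in control spermatogonia (chr1:69826674-69827463; 2.25 ± 0.19, adjusted p = 7.52e-16 by edgeR). All later libraries were above all spermatogonial ones. Its partner Spag17 rose by 1.64 ± 0.23, and Spag4, a nuclear envelope protein of spermatids, by 1.86 ± 0.17. Spag6 did not pass (-0.01 ± 0.21) and its near-identical copy Spag6l rose by 0.57 ± 0.20; reads of the pair may be split. Spag11a, a member by its name that encodes an epididymal protein, did not pass (-0.39). Spag7 had 76.3, 101, 74.8, 61.0 and 75 CPM in later libraries, against 124 to 228 CPM in control spermatogonia (-1.05 ± 0.15), and its peak is shared with Camta2.

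**Figure D3:**
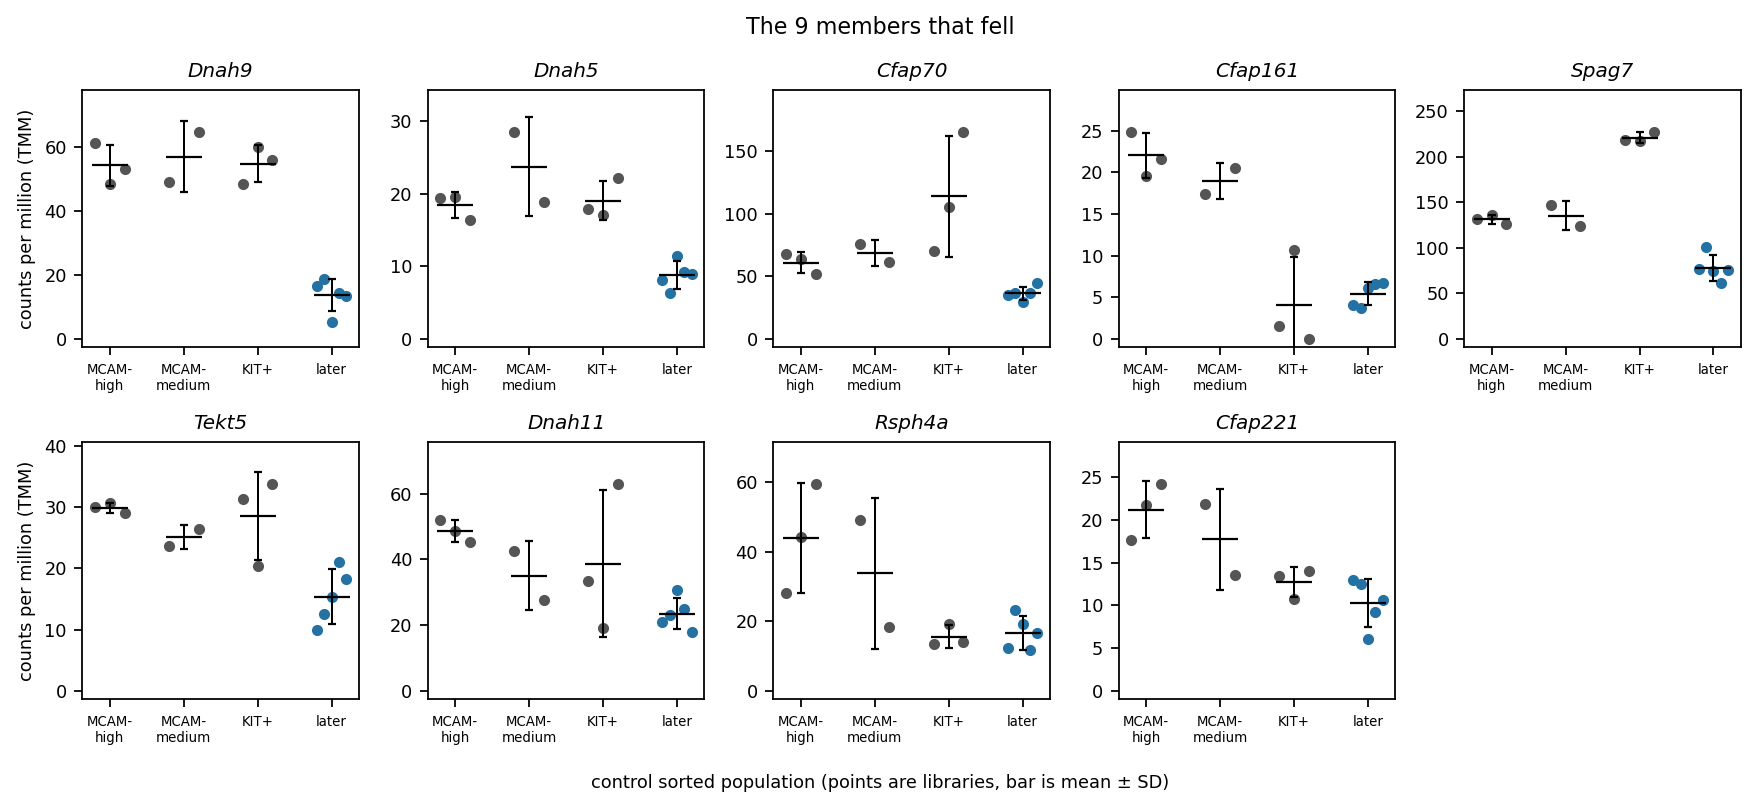
CPM (vertical axes, each with its own scale) of the 9 members that fell, in control MCAM-high, MCAM-medium and KIT+ spermatogonia and in later germ cells (horizontal axes); points are libraries, bars the mean ± SD. The later libraries of Dnah9, Dnah5, Cfap70 and Spag7 lie below every spermatogonial library shown, and Cfap161 and Rsph4a are already low in KIT+ cells (means 4.06 and 15.6 CPM).

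Of the 73 peaks, 55 lay on the start side of the gene, 8 at its far end and 10 at genes whose strand was not in the table. On the start side 40 rose and 5 fell, and at the far end 3 rose and 3 fell (Cfap70, Cfap161 and Tekt5). Over the 14587 genes, not split by side, 34.5% were higher and 30.5% lower. Cfap70 had a second peak on its start side (chr14:20451553-20452386), which averaged 32.7 ± 6.70 CPM in later germ cells and 10.2 ± 4.37 CPM in control spermatogonia, a rise of 1.65 ± 0.25 (adjusted p = 9.62e-08 by edgeR) opposite to the fall at its far end. The start side peak of Tekt5 did not pass (0.36 ± 0.27). Spag16 and Spag5 rose at their start sides and fell at their far ends (-1.80 ± 0.54 and -1.46 ± 0.28). Over the 19 members with more than 1 peak, 16 of the 22 other peaks rose, 2 fell, 3 did not pass and 1 was not tested. Of all 73134 peaks tested, 35.9% were higher and 26.7% lower. The largest rise among the 22 other peaks was at a second peak of Cfap100, with 23.5 ± 5.47 CPM in later germ cells and 0.239 ± 0.457 CPM, near 0, in control spermatogonia (7.24 ± 0.56). All 3 peaks of Cfap157 and of Cfap46 rose, and Cfap65, whose described peak did not pass, rose at its second peak (3.05 ± 0.45). Low in control spermatogonia, the second peaks of Smcp, Akap3, Cfap100 and Cfap65 passed the filter on low counts through the later libraries. The same held for the other peaks of Cfap157 and the weakest peak of Cfap46. These peaks are among the 16 that rose, and for them a rise was favoured in advance. In 21 of the 73 members the peak also lay at an end of another protein-coding gene; there 13 rose and 3 fell, against 36 that rose and 6 that fell of the 52 at no other such gene.

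The rise placed most members higher among gene-end peaks. In CPM per kb of peak, the median member stood at the 69.4 percentile of gene-end peaks in later germ cells and at the 40.5 percentile in control spermatogonia. Below the 10th percentile there were 2 members in later germ cells and 9 in control spermatogonia. The highest levels in later germ cells were those of Odf2l, Cfap20 and Spag4 (127, 119 and 109 CPM per kb).

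**Figure D4:**
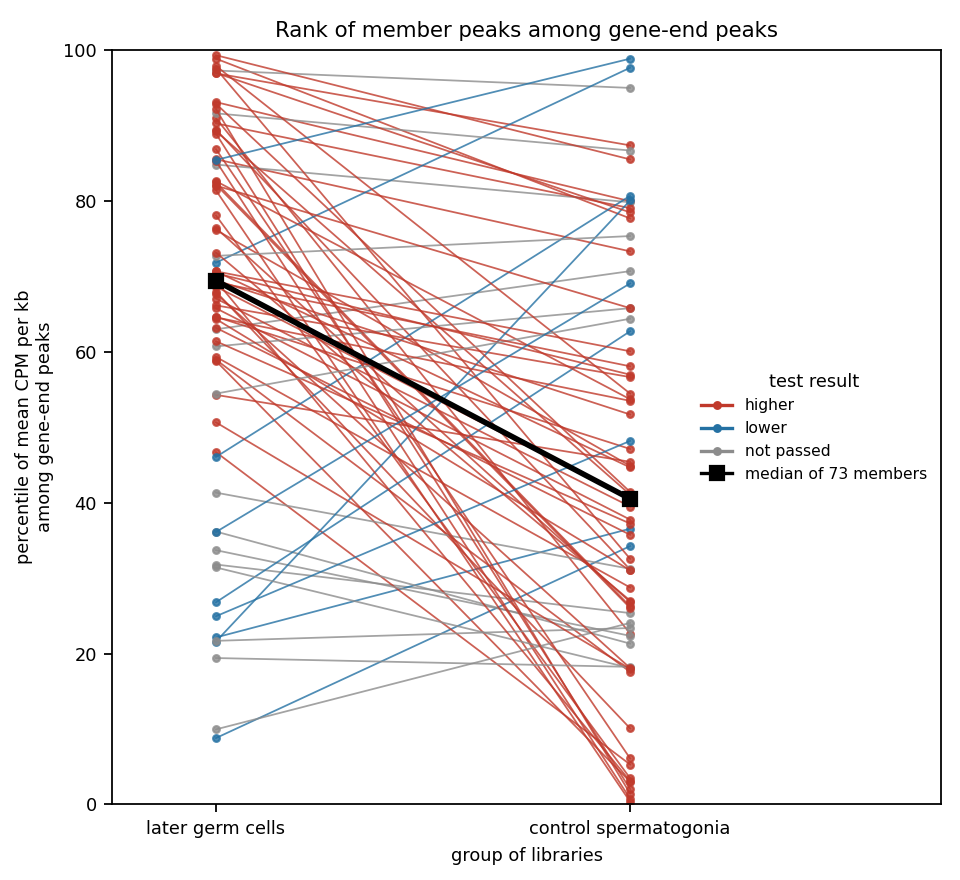
Percentile (vertical axis) of the mean CPM per kb of each member's peak among gene-end peaks in later germ cells and in control spermatogonia (horizontal axis); each line is a member, coloured by its test result, and the black line joins the medians of the 73 members (69.4 and 40.5). Lines that start near the foot of the spermatogonial axis include Dnah3, Odf3, Odf1 and Smcp.

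The titles call later replicates 1 and 2 spermatocytes and 3 to 5 round spermatids, while the library names call 1 to 3 round spermatids and 4 and 5 spermatocytes. The summed spermatid markers were 422.2, 385.0 and 382.9 CPM in replicates 3 to 5 and 323.5 and 339.9 CPM in replicates 1 and 2. The summed spermatocyte markers were 471.1, 455.9 and 437.9 CPM in replicates 3 to 5 and 572.7 and 543.6 CPM in replicates 1 and 2. Both sums separate the libraries in the direction of the titles and against the library names, which for replicates 1, 2, 4 and 5 say the opposite. By title, all round spermatid libraries lay above both spermatocyte libraries in 7 of 73 members (background 8.5% of genes), which were Spag4, Cfap206, Tekt2, Cfap161, Dnah5, Odf1 and Tekt5. They lay below both in 18 members (background 24.4%), Spag16, Cfap157, Dnah17 and Dnah9 among them. Both counts by title are near the background share, so they show nothing particular to the members. By library name the counts were 16 members above (background 15.3%) and 7 below (background 8.01%). These counts are descriptions, and no test was made between the later libraries.

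Promoter sequences were examined for the 46 members whose start in the RefSeq promoter table lies inside the described peak (GRCm38.p6; 250 bases before to 50 after the start). The X-box core GTTGCC on either strand, letters to which RFX factors of ciliary genes bind, was present in 18 of 46 members (39.1%) and in 13.7% of the 9176 genes whose start lies in their gene-end peak. The letters AACNGNC, the core bound by MYB factors such as the meiotic regulator Mybl1, were present in 50% of members and 33.2% of those genes. The CRE core TGACGT was present in 10.9% and 12.2%, the NRF1 core GCATGCG in 8.7% and 6.96%, the SOX letters ACAATGG in 0% and 1.91%, and CCAAT in 41.3% and 40.2% (members first, both strands, with overlap between motifs possible). Member promoters had a median GC content of 56.5%, against 61.67% over the 9176 genes. The X-box core was in 13 of the 35 members that rose, in 0 of the 3 that fell and in 5 of the 8 that did not pass.

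The 250 bases before the start are shown for Odf4 and Spag16, of which the first rose most among these 46 and the second had the largest rise of those with more than 1 X-box core, and for Dnah9, which fell most. Capitals mark the X-box core or its reverse complement, in the 5′ to 3′ direction of the gene, at chr11:68927082-68927331 (minus strand), chr1:69826720-69826969 (plus strand) and chr11:66168552-66168801 (minus strand).
Odf4: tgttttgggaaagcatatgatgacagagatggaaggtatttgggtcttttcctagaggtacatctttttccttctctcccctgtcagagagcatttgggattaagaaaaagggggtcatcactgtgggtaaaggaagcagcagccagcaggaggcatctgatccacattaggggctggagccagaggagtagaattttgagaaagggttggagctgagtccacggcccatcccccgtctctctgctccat
Spag16: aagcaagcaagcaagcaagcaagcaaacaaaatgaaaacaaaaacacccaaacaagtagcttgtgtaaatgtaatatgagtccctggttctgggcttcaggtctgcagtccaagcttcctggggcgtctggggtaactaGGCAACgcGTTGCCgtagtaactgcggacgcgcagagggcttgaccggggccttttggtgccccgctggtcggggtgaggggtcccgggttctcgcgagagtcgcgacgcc
Dnah9: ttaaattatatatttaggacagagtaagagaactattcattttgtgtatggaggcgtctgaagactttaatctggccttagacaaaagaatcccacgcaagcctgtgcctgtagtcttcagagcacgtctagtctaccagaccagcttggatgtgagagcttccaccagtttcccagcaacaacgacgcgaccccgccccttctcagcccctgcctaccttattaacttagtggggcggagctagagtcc
Spag16 holds GGCAAC and GTTGCC 2 bases apart, and Odf4 and Dnah9 hold none in this window.

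The pairing of these letters was looked at after these matches had been seen. GTTGCC followed 2 bases later by GGCAAC, the palindromic form of the X-box, stood in 2 of 46 member promoters (4.35%) and in 10 of the 9176 (0.109%). The 2 members are Cfap298, a dynein arm assembly factor that rose by 0.52 ± 0.16, and Cfap20dc, which did not pass (0.10 ± 0.19). The 40 bases around the pair, which begins at positions -188 and -102 from the start, are shown with both cores in capitals (chr16:90935011-90935050 and chr14:8666366-8666405, both minus strand).
Cfap298: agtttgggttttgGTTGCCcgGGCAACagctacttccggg
Cfap20dc: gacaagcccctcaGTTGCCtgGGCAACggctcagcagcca

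Other genes of the tail were read from lists of named genes. Of 31 further genes of axoneme assembly with a peak, 22 rose and 5 fell in later germ cells (median log2 fold change 0.99, against 0.05 over all genes, of which 34.5% rose and 30.5% fell), among them Hydin of the central pair (2.03 ± 0.24) and the dynein assembly factor Dnaaf1 (1.58 ± 0.18) upward, and the assembly factor Dnaaf5 downward (-1.04 ± 0.16). Of 13 further sheath genes 11 rose and 2 fell, and of 13 genes of sperm channels and signalling 9 rose and 1 fell (medians 1.09 and 4.35). The largest of these were the soluble adenylyl cyclase Adcy10 (74.8 ± 7.59 CPM in later germ cells, 1.89 ± 2.94 CPM in control spermatogonia) and the channel gene Catsper3 (24.9 ± 5.80 CPM in later germ cells, 0.112 ± 0.316 CPM in control spermatogonia). Of 22 genes of intraflagellar transport, which builds the axoneme in cilia, 14 rose and 0 fell (median 0.74). Tested among the spermatogonial libraries alone were 30 of the 31 axoneme assembly genes and 11 of the 13 sheath genes. The same held for 7 of the 13 channel and signalling genes and 21 of the 22 transport genes. The rest passed the filter on low counts through the later libraries, where they are high, so a rise was favoured in advance. Of 11 regulators of ciliary or spermatid genes 4 rose and 1 fell (median 0.24, beside the 34.5% and 30.5% over all genes). Foxj1 (1.96 ± 0.20), Tcfl5 (1.67 ± 0.23), Sox30 (1.63 ± 0.18) and Rfx2 (0.73 ± 0.16) rose and Sox5 fell (-2.01 ± 0.35). Crem, Mybl1, Rfx4, Ccno, Mcidas and Myb did not pass. From control KIT-negative to KIT+ cells 6 of the 11 rose, Tcfl5 (1.25), Rfx2 (1.07) and Sox30 (1.06) among them, with a background of 22.6%. Against control KIT+ cells 3 rose and 4 fell in later germ cells (background 19.9% and 29.9%).

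Within spermatogonia the KIT step, from KIT-negative to KIT+ cells, was called for fewer members. Between KIT+ and KIT-negative control cells 12 of 73 members rose (16.4%, with a background of 22.6% of genes) and 6 fell (8.22%, background 3.47%), and the median log2 fold change was 0.09 over members and 0.31 over all genes. With total counts in place of TMM 9 members rose and 11 fell, while 16% of the same genes were higher and 6.79% lower. Odf1 is among the 12 and entered this fit through the later libraries; of the 66 members tested among spermatogonia alone, 11 rose (background 22.9%) and 6 fell (background 3.59%). The comparisons with KIT+ cells share the KIT+ control libraries. Between later germ cells and control KIT+ cells 42 members rose (background 19.9%) and 6 fell (background 29.9%), with medians of 0.79 over members and -0.17 over genes. DESeq2's size factors gave 47 and 5 members there, with 26.5% of genes higher and 23.5% lower. Of the 66 members tested among spermatogonia alone, 35 rose there (background 17.3%) and 6 fell (background 31.2%). Odf1, Dnah3, Odf3, Smcp, Dnah17 and Cfap157 were at or below 6.42 CPM in every control spermatogonial library, and their log2 fold changes in later germ cells over KIT+ cells were 4.68 ± 0.49, 7.15 ± 0.64, 4.74 ± 0.67, 5.06 ± 0.57, 2.65 ± 0.65 and 3.59 ± 0.57. All of them passed the filter on low counts through the later libraries, where they are high, so a rise was favoured in advance. Over all control KIT+ libraries Dnah3 had 1 count and Odf3 had 3, at or below the floor of 3 counts. The sizes of their fold changes over KIT+ cells are therefore uncertain.

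Spag9, the kinase scaffold, had its rise at the KIT step. It had 17.3, 20.9 and 13.2 CPM in control MCAM-high cells, 28.6 and 16.2 CPM in MCAM-medium cells, 57.4, 53.5 and 49.0 CPM in KIT+ cells and 61.2 to 79.4 CPM in later germ cells. The KIT step was 1.43 ± 0.24 (adjusted p = 1.54e-05 by edgeR), and later germ cells against KIT+ cells did not pass (0.41 ± 0.23, adjusted p = 0.136). Cfap58 changed at both steps, with 1.79 to 8.10 CPM in KIT-negative cells, 19.4, 9.62 and 14.6 CPM in KIT+ cells and 33.7 to 39.7 CPM in later libraries (1.61 ± 0.38 and 1.26 ± 0.33). Cfap61 (1.27 ± 0.27) and Odf2 (0.92 ± 0.20) also rose at the KIT step. For Odf1 the KIT step rests on 2, 6 and 0 counts in KIT+ libraries, and the call was lost without control KIT+ replicate 2.

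Cfap161, a protein of the doublet lumen, fell at the KIT step. It had 1.49, 10.7 and 0 CPM in control KIT+ cells, against 17.4 to 24.9 CPM in KIT-negative cells (-2.62 ± 0.54, adjusted p = 0.000358 by edgeR), and the groups did not overlap. Other falls at this step were those of Rsph4a (-1.33 ± 0.33), Dnah14 (-1.33 ± 0.42), Spag8 (-1.29 ± 0.35), Dnah7b (-0.98 ± 0.29) and Dnah7c (-0.92 ± 0.29). Dnah14 and Dnah7c then rose in later germ cells over KIT+ cells (1.68 ± 0.41 and 1.19 ± 0.29), and Cfap70 and Spag7 rose at the KIT step (0.83 ± 0.22 and 0.73 ± 0.18) before their lower values in later germ cells. Of the 8 largest rises (Odf1, Odf3l1, Cfap58, Cfap52, Spag9, Cfap61, Odf2 and Spag4) and the 6 falls, Spag9, Cfap61, Odf2 and Cfap161 kept the call when any 1 library was left out, and the other 10 lost it at least once. Without control MCAM-medium replicate 1, 7 members rose and 3 fell.

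The deleted libraries, which share none with the control step, gave the KIT step again. There 7 of 66 tested members rose (background 21.7%) and 4 fell (background 2.27%). Without deleted KIT+ replicate 1 the number that rose was 4. With total counts in place of TMM 4 rose (background 13.8%) and 5 fell (background 4.63%). Of the 18 members called in control cells, 17 were tested in deleted cells and all 17 had the same sign; 8 passed in both, which is 44.4% of the control calls and 72.7% of the 11 deleted calls. These 8 were Spag9, Odf2, Spag4, Cfap20 and Spag7 upward and Cfap161, Rsph4a and Dnah7b downward. The like shares over all genes are not given here, so whether members repeat better than other genes was not tested. Spag9 had 66.6, 52.4 and 59.0 CPM in deleted KIT+ cells, against 16.5 to 26.7 CPM in deleted KIT-negative cells (1.32 ± 0.23). Cfap161 had 5.19, 3.70 and 2.33 CPM in deleted KIT+ cells, against 12.0 to 41.8 CPM in deleted KIT-negative cells (-2.49 ± 0.52). No member's KIT step passed the test of the difference between genotypes, and 2 of 66 had an unadjusted p under 0.05 (Cfap61 and Cfap58, whose steps were 0.86 ± 0.38 and 1.24 ± 0.58 smaller in deleted cells). Over all genes, 474 of 14081 had an unadjusted p under 0.05 in that edgeR test.

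**Figure D5:**
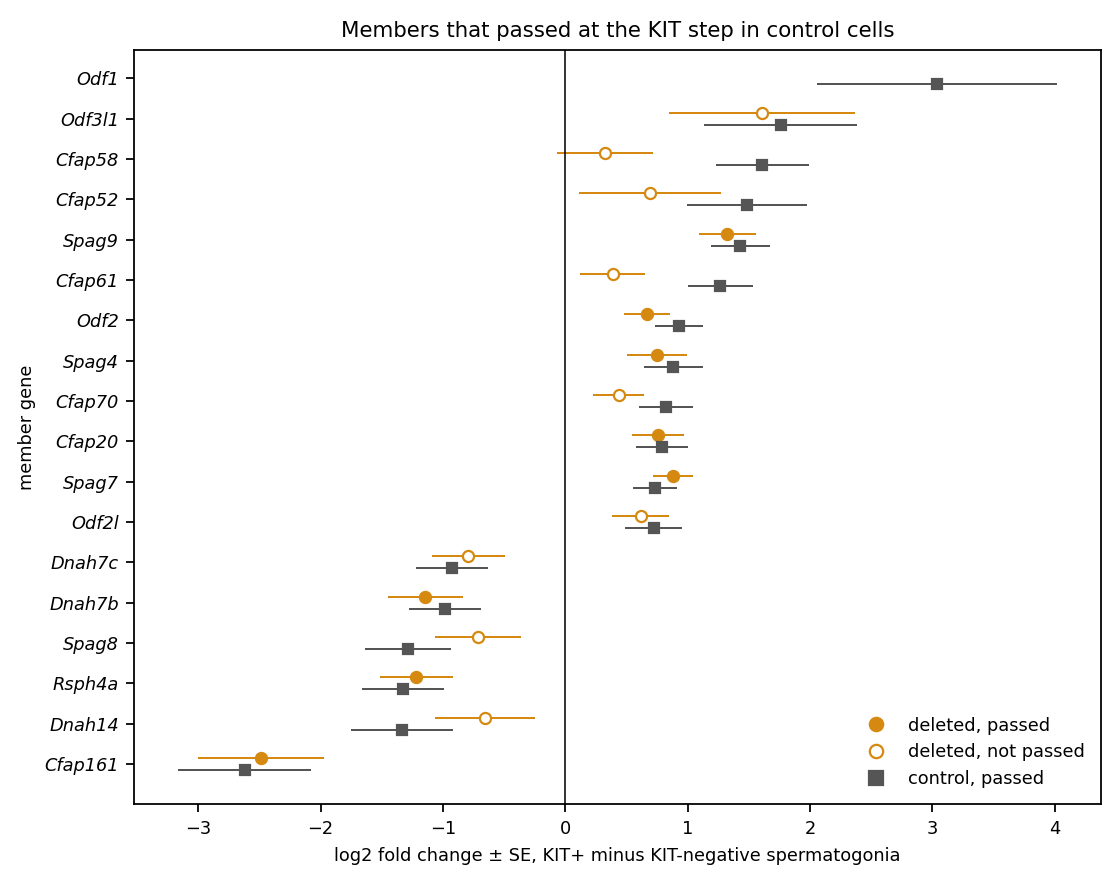
Log2 fold change with its standard error (horizontal axis), KIT+ minus KIT-negative spermatogonia, of the 18 members that passed in control cells (vertical axis), in deleted cells (orange circles, open where not passed) and in control cells (grey squares). All 17 members tested in deleted cells lie on the same side of 0 as in control cells, and Odf1 was not tested there.

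Deletion of Tert gave no called change at the 66 members that passed the filter on low counts in spermatogonia. By edgeR, 0 passed for the mean of the 3 populations, where the background was 0.0355% higher and 0.0142% lower, and 5 had an unadjusted p under 0.05. DESeq2 also called 0 in each deletion contrast. In MCAM-high cells 0 passed (background 0.0071% higher, 0% lower, and 2 members unadjusted), in MCAM-medium cells 0 (background 0%, and 8 members unadjusted) and in KIT+ cells 0 (background 0%, and 0 members unadjusted). Of the 14081 genes tested, 533 had an unadjusted p under 0.05 for the mean by edgeR. The like numbers of genes were 427 in MCAM-high, 475 in MCAM-medium and 375 in KIT+ cells. Whether members differ from other genes in this was not tested. Log2 fold changes for the mean ran from -0.61 to 0.78. The smallest p belonged to Dnah7b for the mean (-0.61 ± 0.19, adjusted p = 0.431) and in KIT+ cells (-0.71 ± 0.36, adjusted p = 1), to Cfap20dc in MCAM-high cells (-0.62 ± 0.26, adjusted p = 0.726) and to Cfap298 in MCAM-medium cells (-0.92 ± 0.25, adjusted p = 0.602). Cfap298 had 36.1, 44.6 and 49.4 CPM in deleted MCAM-medium cells and 89.3 and 70.7 CPM in control MCAM-medium cells.

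The 7 members that were not tested in the spermatogonial fit (Cfap157, Dnah17, Dnah3, Odf1, Odf3, Odf4 and Smcp) had too few counts there. Odf1 had 3.43, 6.5 and 3.14 CPM (4, 10 and 4 counts) in deleted MCAM-high cells and 0 counts in all 3 control MCAM-high libraries. In 1 fit over all 22 libraries, which these 7 members enter through their counts in later libraries, Odf1 was called for deletion; in MCAM-high cells that rests on these few counts, and no value of the fit is given. Odf3 had 2.57, 2.60 and 6.28 CPM in deleted MCAM-high cells and 0.692, 0 and 0 CPM in control MCAM-high cells. Dnah3 had 5.14, 3.90 and 0 CPM in deleted MCAM-high cells and 0.692, 0 and 0.527 CPM in control MCAM-high cells. Not all 7 were higher in deleted MCAM-high cells. Smcp had 0, 0.65 and 2.35 CPM there and 0.692, 2.13 and 2.63 CPM in control ones. For Cfap157 the values were 1.7, 1.95 and 3.14 CPM deleted and 1.73, 3.83 and 3.16 CPM control. Odf4 had 7.72, 0 and 0 CPM deleted and 0, 1.70 and 1.05 CPM control, and Dnah17 3.43, 0 and 3.14 CPM deleted and 1.38, 0 and 0 CPM control. The summed spermatid markers were 40.8 to 59.2 CPM in deleted MCAM-high cells and 54.7 to 68.5 CPM in control MCAM-high cells.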

How the data were processed

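The authors' deposited table gives raw read counts in 96049 peaks, 1 peak set for all 22 libraries, per the file headers. FastQC, Bowtie2, SAMtools and Picard are named in the submitters' processing notes. The peak caller, counting tool, Tn5 offset and duplicate filter are not given in the sources used here, and duplicates would widen the spread of low counts. Even values made up 49.3 to 49.9% of the nonzero counts in the later libraries. In the spermatogonial libraries the share was 48.8 to 73.9%, highest in a control KIT+ library. The cause of this difference and its effect on small counts were not tested. Counts ranged from 922085 to 3358377 per library, and a floor of 3 counts covers counting error only.

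Counts were tested with edgeR 4.0.16 (R 4.3.3, limma 3.58.1): quasi-likelihood F tests after TMM scaling and the filterByExpr filter by group, with Benjamini-Hochberg adjustment over every tested peak (73134 in the 13 libraries of control spermatogonia and later germ cells, 57289 in the 17 spermatogonial ones), with 9 and 11 residual degrees of freedom. CPM values were scaled by TMM over all 22 libraries. Genes and their ends came from a RefSeq table of GRCm38.p6, strands from its promoter table (71 of 86 members present). The scripts were tested on simulated counts.

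Members and gene lists were chosen with earlier results of these data known. Genes were named by rule: the 10 largest rises and all falls, the highest level per kb in each family, Smcp, Akap3 and Ropn1, up to 8 in each direction at the KIT step, and the smallest p for each deletion contrast. Other genes were named after their values were seen. Alternatives were other scalings, DESeq2 1.42.0, other filters, windows and peak choices, each library left out, and the replicate number as a block. Replicate numbers were not taken as pairs.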

Additional observations from a re-analysis of the deposited data

Results flagged for a closer look

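Odf2 in later replicate 2 had 130.0 CPM, apart from the other 4 later libraries, which had 172.8 to 183.5 CPM. The gap to the nearest of them was 0.8 of the range of the 5 values, above the 0.71 that Dixon's test allows at this size. Of 36 groups of 5 libraries examined, 1 stood out in this way, and chance alone gives about 1 in 20.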

How the results depend on the processing

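With each library left out in turn, 46 to 51 members rose and 8 to 10 fell in later germ cells against control spermatogonia, 38 to 47 rose and 5 to 6 fell against KIT+ cells, 7 to 14 rose and 3 to 6 fell at the control KIT step, 4 to 10 rose and 3 to 5 fell at the deleted KIT step, and 0 to 0 passed in each deletion contrast. With later replicate 3 as the only later library 31 rose and 3 fell; 5 fell with the peak nearest to the gene start (60 tested) or with start-side peaks only (55 tested), where fewer members are read. With total counts in place of TMM 11 members fell at the control KIT step and 4 rose at the deleted one, where the peak nearest to the start gave 2 that fell. In 1 fit over all 22 libraries 1 member, Odf1, which enters it through the later libraries, passed for deletion in MCAM-high cells and 1 for the mean; with 4, 10 and 4 counts in deleted and 0 in control MCAM-high cells, nothing is read from it. Directions turned at the peak nearest to the start for Cfap70 (1.65) and Tekt5 (0.36), with later replicate 3 alone for Dnaic1 (-0.059) and Rsph3b (-0.22), and with total counts for Rsph3b (-0.0069) and Akap3 (-0.15); the far-end peak of Akap3, near 0, was -0.0031 on chromosomes 1 to 19 only and -0.14 to -0.01 where libraries left out turned it. Except where said, the cause was not tested. Of 1157 values of named genes, 1089 kept direction and call, 46 lost the call, 7 gained it and 15 turned.

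Same-numbered libraries within a genotype correlated at -0.42 to 0.05 in their deviations, so the numbers were not taken as pairs. With the number as a block within genotype, 49 members rose and 9 fell in later germ cells, 43 and 6 against KIT+ cells, 11 and 6 at the control KIT step and 5 and 4 at the deleted one, and 0 passed for deletion. Against the median of all peaks (0.04 with TMM, 0.23 with DESeq2's size factors, -0.12 with total counts), the median member stood at 0.79, 0.995 and 0.63 in later germ cells. Depth limits sites of a few counts, such as Odf1 in spermatogonia.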
